A study of Mus musculus with 9 samples.

Results

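The cells described here were SB28, a glioma line of the mouse with GFP and luciferase transgenes, grown in mouse brain without drug. They are the 3 libraries labelled as controls, of 9 libraries in the deposited table, and were chosen by their labels alone. Per the study's methods, the cells were implanted in the brains of C57BL/6J mice 6 to 8 weeks old, the mice received vehicle, and tumors were taken at day 21. Dissociated tumors were sorted for cells that carried GFP and lacked CD45 and CD11b, whereas the sample labels give the strain as C57BL/6 and call the material whole tissue. The labels do not say whether the libraries came from separate mice, so the spread given below is the spread between these samples and may be technical. The study's methods state 2 ex vivo samples per group, and the table holds 3. The other 6 libraries are 3 of SB28 cells from mice treated with BAL101553, a prodrug that acts on microtubules, which are not described here, and 3 labelled astrocytes, also from C57BL/6 brain and with BAL101553 as their labelled treatment. The last group was used only as a scale for the levels of marker lists and of some other genes. No test between groups was made, since its labelled treatment and cell type differ together from the controls.

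The line was derived from a tumor induced in C57BL/6 mice with transposons that carried mutant NRAS, PDGF and a hairpin against p53, so the libraries represent 1 engineered model of glioma. Gliomas are classed by whether their cells resemble neural stem cells, oligodendrocyte precursors, astrocytes or mesenchymal cells, the last of which build extracellular matrix and carry contractile proteins. A tumor cell also signals through the ligands it secretes and the receptors it carries, and it responds to oxygen and to interferon made by other cells around it. Transgene reads were not analysed here, because the table counts mouse genes only.

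The table gives whole-number read counts on 24421 gene rows. The control libraries held 24540452 to 28761388 counted reads. Levels are given as CPM, which is the count per 1000000 counts of the library, in the order control 1, control 2 and control 3 or as a mean ± SD, and levels of different genes are set against each other only as CPM per kb of exon. A count of 0 allows a level of up to 3 counts, which is 0.104 to 0.122 CPM, and this limit covers counting error only. Of all rows, 16325 had a count in at least 1 control library, 11218 had at least 1 CPM in each, and 9860 had a mean of at least 5 CPM and entered the description of the spread. Another 8096 rows had no count. The libraries were no copies of each other, as chi-square over its degrees of freedom was 22.7 to 38.5 for the pairs, which does not tell separate mice from separate preparations. Control 1 and control 2 were the least alike. Their log2 levels differed by a root mean square of 0.350 over the 9860 genes, against 0.288 for control 1 and control 3 and 0.264 for control 2 and control 3.

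Transcripts of matrix, cytoskeleton and translation took the most counts. *Spp1* on chromosome 5 (104435118 to 104441050, GRCm38), which encodes the secreted matrix protein osteopontin, had 10278, 9530 and 9433 CPM. Its mean of 9747 ± 463 CPM (SD, n = 3) compares with 15.6 to 61.1 CPM in the libraries labelled astrocytes. Only *Eef1a1*, the elongation factor that delivers tRNA to the ribosome, took more counts, with 9935 ± 156 CPM (SD, n = 3). The ribosomal RNA precursor *Rn45s* came next with 9281 ± 691 CPM (SD, n = 3), and as a leftover of ribosomal RNA it is no measure of a messenger.

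The rest of the 25 genes with most counts fall into a few families. Matrix proteins were osteopontin, *Sparc* (5301 ± 582 CPM), fibronectin *Fn1* (4641 ± 479 CPM), tenascin C *Tnc* (3753 ± 726 CPM), *Col1a1* (3736 ± 375 CPM), *Fbln2* (2646 ± 400 CPM) and *Col3a1* (2616 ± 467 CPM; all SD, n = 3). The cytoskeleton was represented by *Actb*, *Actg1*, *Flna*, *Vim*, *Msn*, *Myh9* and *Tmsb4x*. Filamin A (*Flna*), which crosslinks actin, had 5404 ± 237 CPM and vimentin (*Vim*), the intermediate filament of mesenchymal cells, 4878 ± 117 CPM (both SD, n = 3). The fibronectin receptor subunit *Itgb1* had 4356, 3617 and 3947 CPM. Together the 25 genes held 11.2% of the counts, and none of them differed by more than 1.49-fold between the highest and the lowest library.

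Per kb of exon the order changed toward short transcripts. *Spp1* led with 5914 CPM per kb, followed by *Eef1a1* (3985), *Lgals1* (3384), *B2m* (2304), *Crabp1* (2282), *Actb* (2207) and *Actg1* (2165). *Lgals1* encodes galectin 1, a secreted lectin, *B2m* the light chain of MHC class I, and *Crabp1* a cytosolic binding protein for retinoic acid. *Crabp1* had 1985, 1716 and 1790 CPM, so that a gene outside the matrix and housekeeping families stood among the leaders in every library. The protease inhibitor *Timp1* (1529 CPM per kb) and the calcium-binding protein *S100a6* (1430) followed close to *Sparc* (1399). Of the 25 genes highest by CPM, 12 were also among the 25 highest per kb.

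**Figure D1:**
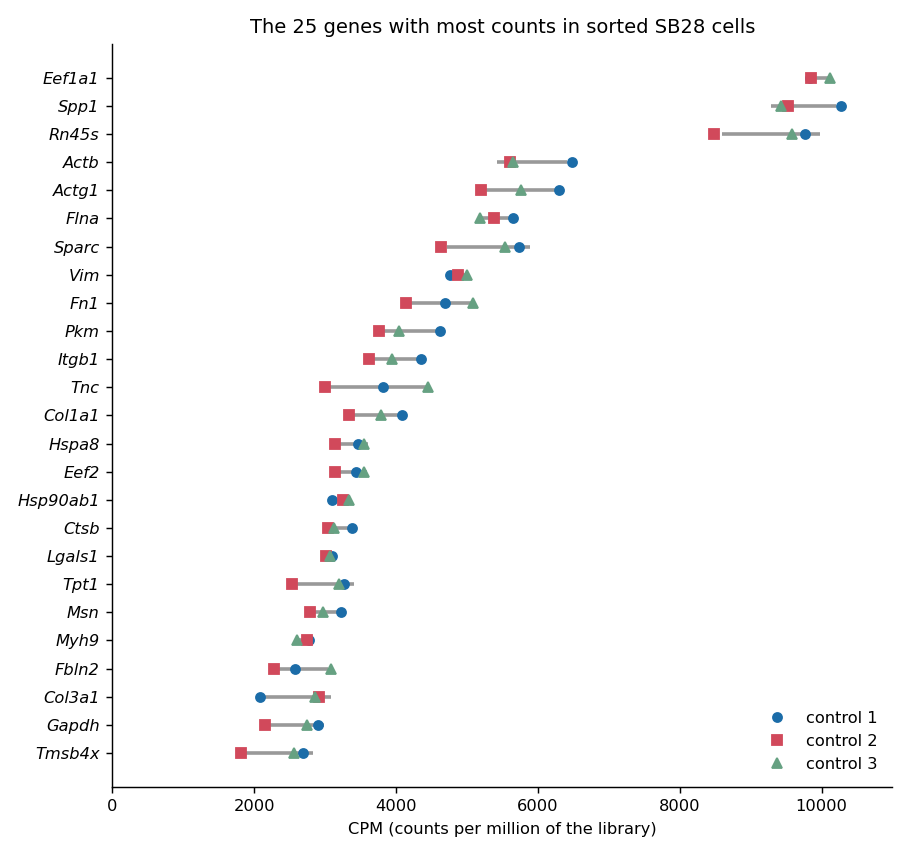
CPM of the 25 genes with most counts in control 1, 2 and 3 (points), with the mean ± SD of the 3 libraries as a grey bar. *Eef1a1*, *Spp1* and *Rn45s* lead in every library, and none of the 25 genes differs by more than 1.49-fold.

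Mesenchymal genes took the most counts of the cell identity lists. Of 26 genes of the mesenchymal state of glioma, 25 had a mean of at least 5 CPM, and their sum was 26596, 24434 and 27582 CPM, or 2.62% of all counts on average. In the libraries labelled astrocytes the same genes summed to 1087 to 1364 CPM. *Cd44*, the hyaluronan receptor that marks mesenchymal glioma cells, had 578 ± 44.8 CPM (SD, n = 3) against 11.4 to 13.5 CPM in the libraries labelled astrocytes. *Chil1*, a mesenchymal marker of human glioma, was the exception with 1, 0 and 0 counts. Regulators of the state were present at moderate levels: *Runx1* at 177 ± 16.0 CPM, *Fosl1* at 152 ± 19.2 CPM, *Stat3* at 186 ± 7.59 CPM, and the Hippo pathway effectors *Wwtr1* at 351 ± 46.7 CPM (all SD, n = 3) and *Yap1* at 200.4, 212 and 173 CPM. None of the 25 genes differed past 2-fold between the libraries, against 2.76% of all 9860 genes. Their median SD on the log2 scale, 0.174, was nevertheless above the 0.127 of all genes. Per kb, *Lgals1*, *Timp1*, *S100a6* and *S100a11* (1198) were above *Vim* (1028).

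All 12 regulators and cadherins of the epithelial to mesenchymal transition were expressed, with sums of 1447, 1489 and 1468 CPM. The transcription factor *Prrx1* had 328, 336 and 286 CPM and *Twist1* 49.5, 49.8 and 55.8 CPM. *Snai1*, a repressor of E-cadherin, had 61.0, 52.0 and 69.0 CPM. Cadherins of the list were present, among them *Cdh6* at 334 ± 56.1 CPM and N-cadherin *Cdh2* at 217 ± 18.9 CPM (both SD, n = 3), whereas E-cadherin *Cdh1* had 0.774, 0.139 and 0.841 CPM. In the libraries labelled astrocytes the list summed to 585 to 640 CPM. *Cdh6* had 3.52 to 3.93 CPM there, but *Cdh2* had 183 to 198 CPM. *Zeb2* was higher there, at 187 to 255 CPM against 75.8 CPM on average in the controls. Each library thus held the whole list with little E-cadherin.

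The list of smooth muscle contractile genes was likewise high in sum, with 14 of 15 described and 13975 ± 888 CPM (SD, n = 3). Most counts came from *Flna*, *Tpm1*, *Tpm4*, *Cald1* and *Actn1*, which are not confined to muscle. *Lmod1* had 9, 7 and 11 counts. The list summed to 1196 to 1442 CPM in the libraries labelled astrocytes, but *Myl9* (58.9 to 70.0 CPM) and *Lmod1* (2.43 to 3.58 CPM) were higher there. Smooth muscle actin *Acta2* had 807, 644 and 683 CPM, and *Tagln* 158, 124 and 130 CPM. Tropomyosins *Tpm1* (1897 ± 115 CPM) and *Tpm4* (1606 ± 62.6 CPM; both SD, n = 3) and caldesmon *Cald1* (1177 ± 11.05 CPM, SD, n = 3) varied little. Control 1 was the highest library in 13 of the 14, against 31.5% of all genes, and 3 of the 14 were past 2-fold, against 2.76%. These were the enteric smooth muscle actin *Actg2* (chromosome 6, 83512905 to 83536265) with 205, 39.5 and 33.7 CPM, *Cnn1* (55.1, 38.0 and 21.8 CPM) and *Myl9* (42.9, 34.004 and 18.8 CPM). All 3 were highest in control 1 and lowest in control 3.

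Fibroblast genes were present in part, with 7 of 13 described. The 13 fibroblast genes summed to 8955 ± 304 CPM (SD, n = 3), most of it from *Col1a1*, *Col3a1* and *Col1a2* (2112 ± 100 CPM, SD, n = 3). The defining fibroblast genes *Lum*, *Dpt*, *Pi16*, *Mfap5* and *Tcf21* had between 0 and 9 counts per library. *Dcn* had 3.46, 5.22 and 4.90 CPM, and *Fap* 41.6, 69.7 and 42.5 CPM. The described members were collagen chains and surface proteins, among them *Thy1* with 93.6, 55.0 and 33.0 CPM. In bulk libraries such as these, fewer cells of a type and less RNA per cell cannot be told apart.

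Glial and neural markers were present in part. The astrocyte list summed to 1123 ± 39.7 CPM (SD, n = 3) against 25926 to 29636 CPM in the libraries labelled astrocytes, and most of the sum in SB28 was the gap junction gene *Gja1* (833, 814 and 844 CPM) and the transcription factor *Sox9* (156, 124 and 157 CPM). Of the 15 astrocyte genes, 7 were described, among them *Glul*, glutamine synthetase, at 84.02, 68.1 and 65.9 CPM and *Aldh1l1* at 37.1, 40.7 and 31.2 CPM. *Gfap* and *Aqp4* averaged 0.294 and 0.164 CPM. Oligodendrocyte genes summed to 19.96 ± 1.19 CPM (SD, n = 3) against 16410 to 19761 CPM in the libraries labelled astrocytes, which therefore held oligodendrocyte RNA as well. Of 14 genes of oligodendrocyte precursors, 3 were described. They were *Vcan* at 588, 1032 and 727 CPM, *Pdgfra*, the receptor on which these precursors depend, at 154, 184 and 115 CPM, and *Cspg4*, which encodes NG2, at 56.2, 218 and 90.8 CPM. The lineage factors *Olig1*, *Olig2* and *Sox10* had between 1 and 8 counts per library. *Nkx2-2*, another factor of the lineage, had 20, 39 and 32 counts.

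A small set of neural stem cell genes remained. *Nes*, the intermediate filament of neural progenitors, had 679, 488 and 597 CPM and *Sox2* 109, 114 and 108 CPM. *Sox2* was among the steadiest regulators, with a fold of 1.05 between the highest and lowest library. *Pax6* and *Emx2* averaged 5.89 and 5.88 CPM, and 8 of the 14 genes, among them *Hes5* and *Nr2e1*, had at most 3 counts in every library. *Sox4* (171 ± 8.99 CPM, SD, n = 3) gave the most counts among 19 Sox genes. Of 39 Hox genes, 38 had at most 3 counts in each library.

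Several genes usually assigned to other lineages were present. Neural crest regulators *Tfap2a* (48.0 ± 5.13 CPM), *Tfap2b* (68.3 ± 12.1 CPM) and *Pax3* (19.0 ± 3.13 CPM; all SD, n = 3) were described, whereas *Sox10*, *Foxd3* and *Ngfr* of the same list had at most 7 counts per library. The keratinocyte envelope gene *Sprr1a* had 43.4, 18.5 and 34.9 CPM, while *Krt5* had no count and *Krt14* had 2, 0 and 0. Of the neuronal list, the neurofilament gene *Nefl* had 10.02, 17.2 and 39.8 CPM, *Nefm* 10.96, 18.8 and 27.8 CPM and *Stmn2* 13.1, 18.3 and 27.2 CPM. Of the 7 described neuronal genes, control 3 was the highest library in 5 and control 1 in 2, against 27.99% and 31.5% of all genes. *Rbfox3*, *Slc17a7* and *Grin1* had no count.

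Markers of host cells were checked against the sort. *Ptprc*, which encodes CD45, had 5, 2 and 8 counts, and *Itgam*, which encodes CD11b, 1, 5 and 3 counts. Of 19 genes of microglia and macrophages, 3 were described, and their largest was *Tmem119* with 201, 265 and 141 CPM, while *Csf1r*, *Cx3cr1* and *Aif1* stayed between 0.0348 and 0.367 CPM. Lymphocyte genes summed to 0.244, 0.0348 and 0.191 CPM, with 13 of 14 at 3 counts or fewer. Of the endothelial list, *Cdh5* had 696 ± 51.8 CPM (SD, n = 3), and the defining genes *Pecam1*, *Cldn5* and *Erg* had at most 39 counts per library. Other endothelial genes were lower but present, with *Flt1* at 33.98, 27.3 and 31.4 CPM and *Tek* at 8.96, 3.27 and 6.69 CPM, and 4 of 13 were described. Fully 0 counts were found on the 4 Y chromosome genes in all 3 libraries, and *Xist*, made from the inactive X chromosome, had 9.70, 17.7 and 36.8 CPM against 1321 to 1404 CPM in the libraries labelled astrocytes.

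**Figure D2:**
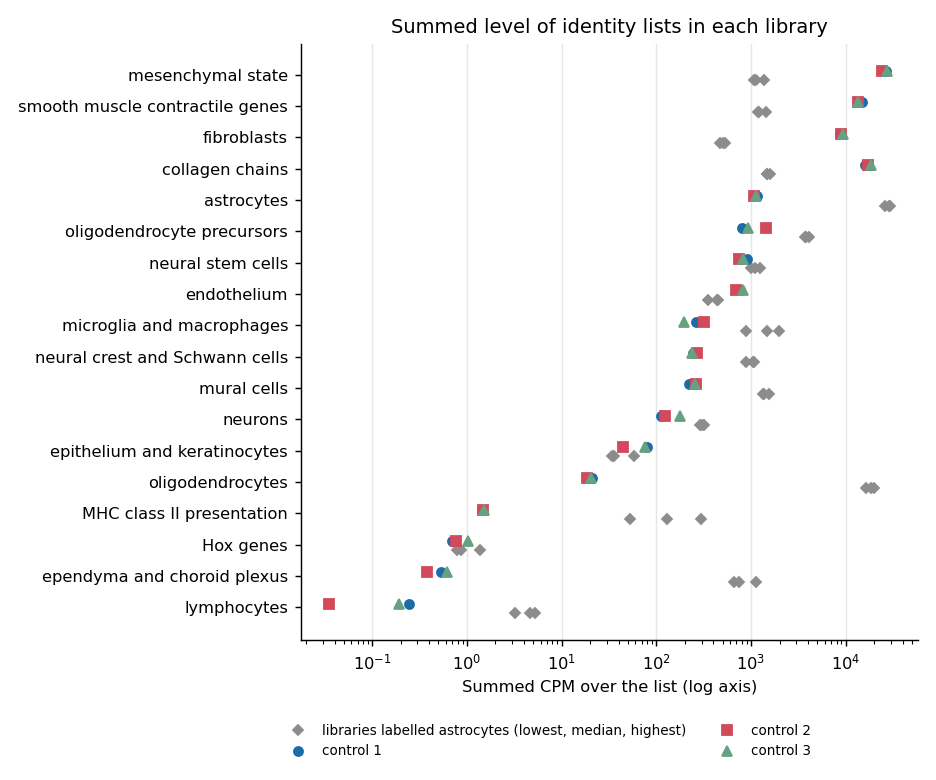
Summed CPM of 18 marker lists on a log axis in control 1, 2 and 3 (coloured points) and in the libraries labelled astrocytes (grey diamonds: lowest, median and highest). Mesenchymal, contractile, fibroblast and collagen lists lie between 8687 and 27582 CPM in the controls, above the grey diamonds, and the oligodendrocyte list lies near 20 CPM, far below them.

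The secreted products were dominated by matrix. A list of 29 matricellular and structural matrix proteins summed to 34115 ± 1474 CPM (SD, n = 3), or 3.41% of all counts, and 25 of them were described. Besides osteopontin, *Sparc*, fibronectin and tenascin C, these were thrombospondin 1 *Thbs1* (1581 ± 141 CPM), perlecan *Hspg2* (1367 ± 216 CPM), biglycan *Bgn* (1085 ± 197 CPM) and *Cyr61* (669 ± 150 CPM; all SD, n = 3), a target of YAP. *Fbn2* (31.9, 95.2 and 25.5 CPM) and *Fbln1* (254, 375 and 177 CPM), both of elastic fibers, were highest in control 2. The median SD of the described members, 0.256 on the log2 scale, was above the 0.127 of all genes, and 3 of 25 were past 2-fold against 2.76%.

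Collagen chains summed to 15860, 17311 and 18406 CPM, with 22 of 44 described. Fibrillar types I, III and V, basement membrane type IV (*Col4a1* at 764, 1068 and 1275 CPM), type VI, type VII and type XVIII were all present. The 3 main chains of type VI collagen, which forms beaded filaments, differed in their spread: *Col6a1* had 639, 782 and 784 CPM, *Col6a2* 161, 351 and 291 CPM, and *Col6a3* 178, 679 and 396 CPM. Control 1 was the lowest for each. Of the 22 chains, 5 were past 2-fold, against 2.76% of all genes, and in 5 control 1 lay below both other libraries by more than 1.5-fold, against 1.52%. The crosslinking enzymes *Loxl2* (274, 460 and 418 CPM) and *Loxl3* (95.8, 184 and 165 CPM) and the gelatinase *Mmp2* (76.2, 219 and 205 CPM) showed control 1 as the lowest library too. Of the 23 described metalloproteases and TIMPs, however, control 1 was lowest in 9 and control 2 in 11, against 39.9% and 30.2% of all genes.

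Laminins and matrix proteases completed the matrix. *Lamb1* (1743 ± 112 CPM) and *Lamc1* (1009 ± 141 CPM; both SD, n = 3) took most of the laminin counts, and the alpha chain with most counts was *Lama4* with 136 ± 26.4 CPM (SD, n = 3). Stromelysin *Mmp3* had 682, 696 and 722 CPM, and the membrane-bound *Mmp14*, which activates other proteases, 697, 665 and 700 CPM. These 2 proteases hardly differed between libraries. *Mmp10* (142, 71.7 and 203 CPM) and collagenase 3, *Mmp13* (20.5, 7.30 and 32.5 CPM), were lowest in control 2 and highest in control 3. The inhibitor *Timp1* had 1729, 1076 and 1267 CPM.

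Growth factors covered several receptor families. The PDGF chain *Pdgfb*, a ligand of both PDGF receptors, had 261, 277 and 261 CPM, and *Pdgfc* had 106 ± 12.4 CPM and *Pdgfa* 51.8 ± 4.16 CPM (both SD, n = 3). Whether reads from a PDGF transgene fell on these genes was not tested. Among ligands of the EGF receptor, *Hbegf* had 261, 252 and 260 CPM and *Ereg* 159, 273 and 165 CPM. The first was steady and the second was highest in control 2. *Vegfa*, the main angiogenic factor, had 238, 108 and 145 CPM, and placental growth factor *Pgf* (chromosome 12, 85166635 to 85177790), which shares a receptor with it, 56.2, 9.53 and 10.8 CPM. Of 36 growth factors, 23 were described and 5 were past 2-fold, against 2.76% of all genes.

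TGF-beta family genes were abundant on the side of storage and antagonism. These were *Ltbp1* (563 ± 21.4 CPM) and *Ltbp3* (458 ± 74.1 CPM), which hold latent TGF-beta in the matrix, follistatin-like *Fstl1* (844 ± 75.9 CPM) and the BMP antagonist *Grem1* (295 ± 71.9 CPM). Each exceeded in counts the ligands *Tgfb3* (92.5 ± 4.64 CPM), *Tgfb1* (66.8 ± 7.92 CPM) and *Tgfb2* (18.1 ± 9.64 CPM; all SD, n = 3). Per kb, *Fstl1* (172), *Grem1* (71.2), *Ltbp1* (52.7) and *Ltbp3* (50.5) were also above *Tgfb3* (27.4) and *Tgfb1* (13.3). *Bmp2* had 44.3, 128 and 68.2 CPM, highest in control 2. WNT ligands were led by *Wnt7b* (350 ± 42.4 CPM) and *Wnt5a* (147 ± 8.03 CPM), with the antagonists *Dkk3* (297 ± 51.1 CPM) and *Dkk2* (106 ± 13.8 CPM; all SD, n = 3). Prostaglandin synthase *Ptgs2*, the enzyme inhibited by aspirin, had 451, 454 and 440 CPM.

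Cytokines and chemokines were fewer. Of 28 cytokines, 9 were described, and beyond osteopontin these included *Mif* (339 ± 69.6 CPM), the macrophage growth factor *Csf1* (172 ± 9.89 CPM) and *Il34* (25.9 ± 3.08 CPM; all SD, n = 3), which acts on the same receptor. Of 39 chemokines, 7 were described and 19 had at most 3 counts per library. *Cx3cl1* had 150, 148 and 114 CPM. The inflammatory chemokines *Ccl2* (12.3, 29.5 and 35.0 CPM), *Ccl7* (4.44, 14.4 and 15.3 CPM) and *Cxcl10* (8.31, 17.5 and 31.7 CPM) were each lowest in control 1. Among the remaining secreted proteins, *Igfbp4* had 2378, 1670 and 1789 CPM, *Igfbp3* 828, 642 and 759 CPM, semaphorin *Sema7a* 1186, 784 and 810 CPM and *Serpinf1*, an inhibitor of vessel growth, 756, 692 and 722 CPM.

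Receptors for several of these ligands were present. Of 47 receptor tyrosine kinases, 26 were described. *Axl*, the receptor for GAS6, had 751, 756 and 829 CPM, *Fgfr1* 606, 760 and 742 CPM and the collagen receptor *Ddr2* 350, 398 and 334 CPM. Per kb, *Axl* (155) was ahead of *Fgfr1* (71.2), *Epha2* (45.4), *Ryk* (41.2) and *Pdgfrb* (40.6). *Pdgfrb* had 222 ± 23.7 CPM, *Met* 81.3 ± 17.7 CPM and *Egfr* 46.2 ± 7.36 CPM (all SD, n = 3). Both PDGF receptors were found together with PDGF ligands in the same libraries.

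Integrins took more counts than the receptor tyrosine kinases, which summed to 3479 ± 214 CPM (SD, n = 3). Integrins summed to 6723 ± 323 CPM (SD, n = 3), of which *Itgb1* and the fibronectin-binding *Itga5* (1236, 1204 and 1118 CPM) made up most. The alpha subunit *Itga10*, a collagen receptor, was low and uneven at 3.38, 20.1 and 5.47 CPM. The endocytic receptor *Lrp1* had 1877, 2459 and 2391 CPM, *Plxnb2* 634, 764 and 666 CPM and the netrin receptor *Unc5b* 471, 412 and 476 CPM. *Notch2* (177 ± 18.7 CPM) and *Notch1* (80.2 ± 17.6 CPM; both SD, n = 3) were both described.

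Protease-activated receptors led the G protein-coupled receptors, with *F2rl1* at 417, 366 and 470 CPM and *F2r*, the thrombin receptor, at 322, 296 and 313 CPM. *Ackr3*, a scavenger of CXCL12, had 201, 121 and 136 CPM, and *Cxcr4* 20.8, 9.28 and 16.1 CPM. Among 31 cytokine and TNF receptors, 24 were described, and the TWEAK receptor *Tnfrsf12a* (334, 313 and 325 CPM) led per kb (168). *Il13ra1*, a receptor chain for IL-13, had 337, 267 and 294 CPM, whereas *Il13ra2* had 1.22, 1.04 and 1.87 CPM. Receptor chains for interferon were present: *Ifnar1* had 99.7, 103 and 93.9 CPM, *Ifngr1* 46.3, 43.7 and 45.2 CPM and *Ifngr2* 164, 172 and 149 CPM. *Ifnar2* varied more than these, with 44.2, 58.1 and 52.9 CPM, and was lowest in control 1. The costimulatory receptor *Tnfrsf9* (148, 50.3 and 59.8 CPM) and the BMP9 receptor *Acvrl1* (135, 55.5 and 70.5 CPM) were high only in control 1, where 1.15% of all genes lay above both other libraries by more than 1.5-fold.

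**Figure D3:**
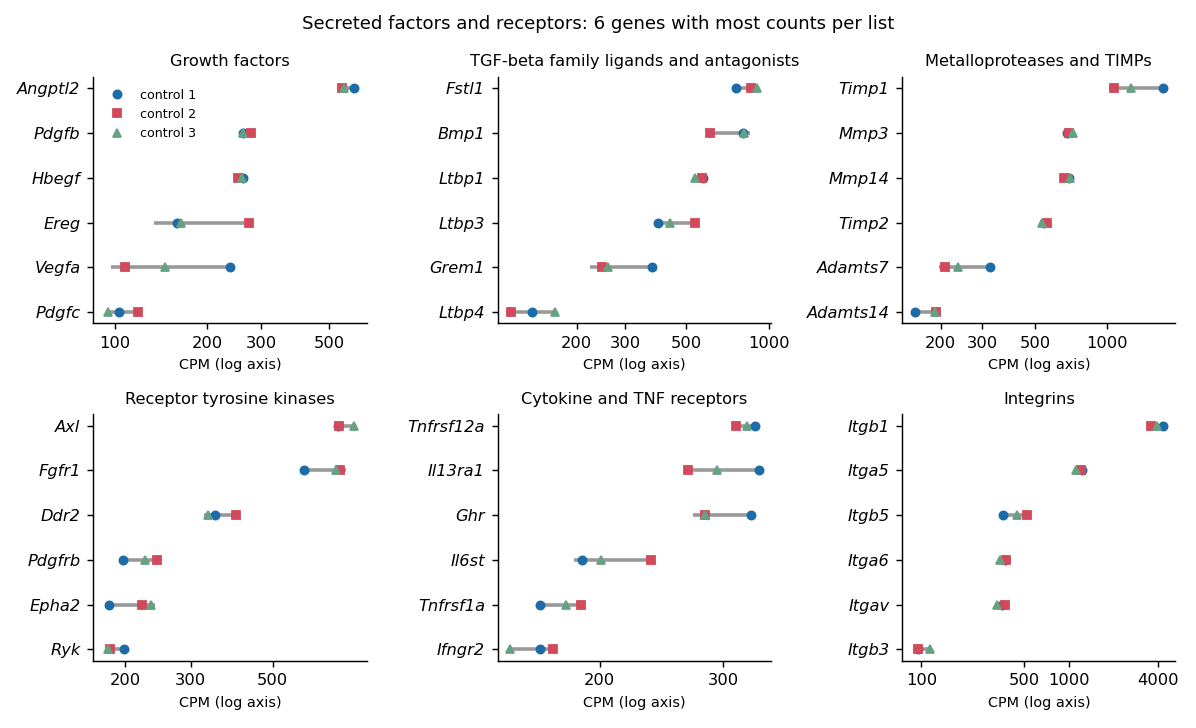
CPM on log axes of the 6 genes with most counts in each of 6 lists of secreted factors and receptors, with control 1, 2 and 3 as points and the mean ± SD as grey bars. Points of *Pdgfb*, *Hbegf*, *Mmp3*, *Mmp14* and *Itga5* nearly coincide, and those of *Vegfa*, *Ereg* and *Timp1* are spread apart.

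Transcripts downstream of ERK, the kinase that RAS activates, were abundant. All 18 transcripts known to be induced by ERK were described, with a sum of 4734 ± 191 CPM (SD, n = 3) against 672 to 697 CPM in the libraries labelled astrocytes. They included *Ccnd1*, cyclin D1, at 1115, 1089 and 956 CPM, the phosphatase *Dusp6* at 411, 450 and 482 CPM, *Emp1* at 1002, 1102 and 967 CPM, *Spry4* at 138, 236 and 163 CPM and *Etv5* at 116, 185 and 129 CPM. Of the RAS genes themselves, *Nras* had 122, 126 and 124 CPM and *Hras* 58.5, 48.6 and 56.2 CPM. *Nras* was the steadier of the pair, and the table counts the mouse gene.

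*Trp53*, which encodes p53, had 76, 81 and 78 counts, or 2.97 CPM on average, against 34.1 to 35.6 CPM in the libraries labelled astrocytes. The cell cycle inhibitors that neighbour each other on chromosome 4 had more counts: *Cdkn2a* had 296, 409 and 390 CPM and *Cdkn2b* 109, 133 and 137 CPM. The p53 target *Cdkn1a* had 116, 80.5 and 93.8 CPM and *Mdm2* 83.3, 73.0 and 72.9 CPM, and 13 of 16 p53 targets were described. *Myc* had 127, 210 and 166 CPM, highest in control 2, and *Mycn* 0, 0 and 2 counts. The tumor suppressors *Nf1* (70.6, 90.6 and 72.4 CPM) and *Rb1* (11.6, 9.91 and 12.3 CPM) were both detected.

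Mitosis genes varied little, with a median SD of 0.0901 on the log2 scale against 0.127 for all genes. All 22 mitosis genes were described and summed to 1863, 1962 and 1932 CPM, among them *Top2a* (200, 232 and 219 CPM), *Mki67* (114, 104 and 117 CPM) and *Cdk1* (105, 106 and 116 CPM). The 25 genes of DNA replication summed to 1707, 2089 and 1858 CPM, with *Mcm6* at 221, 277 and 216 CPM and *Pcna* at 181, 201 and 192 CPM. In 20 of these 25, control 1 was the lowest library and in 19 control 2 the highest, against 39.9% and 40.5% of all genes. None was past 2-fold, but their median SD of 0.162 was above that of all genes. The 18 MYC and nucleolar genes, such as *Ncl* (1060, 1098 and 1134 CPM) and *Npm1* (786, 795 and 941 CPM), and 36 described proteasome subunits had the smallest median SD of all lists. Ribosomal proteins took 5.15% of all counts over 84 genes. Control 3 was highest in 69 of the 76 described and control 2 lowest in 66, against 27.99% and 30.2% of all genes. Genes with short exons leaned the same way, as given below, and the part of length in this order was not tested. Of the 84 genes, 4 had at most 3 counts in every control library, *Rpl26* among them with no count. The enolase gene *Eno1* had no count either. How reads shared by near-identical genes and pseudogenes were counted is not given in the sources used here, and levels of such genes are uncertain.

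The spread among the 3 libraries was small for most genes. The median SD of log2(CPM + 0.5) over the 9860 genes was 0.127, the median fold between the highest and lowest library was 1.18, and 272 genes (2.76%) were past 2-fold and 19 past 4-fold. Of the 272, control 1 was the highest in 120 and the lowest in 119. A library stood more than 1.5-fold above both others in 1.15% of genes for control 1, 0.933% for control 2 and 0.345% for control 3, and below both in 1.52%, 1.09% and 0.426%. Levels also moved a little with transcript length, since the genes with the longest exons (the top quartile) had a median log2 level in control 2 that was 0.099 above the mean of the other libraries. In the quartile with the shortest exons the median was 0.058 above the other libraries in control 3 and 0.034 below them in control 2. The part of length in the results given here was not tested.

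Functions were compared by the median SD of their genes over 44 lists with at least 8 members described. Interferon response genes had the largest median SD (0.634), followed by hypoxia targets (0.554), glycolysis (0.354), collagen chains (0.284), serpins (0.281), semaphorins (0.278), MHC class I presentation (0.276) and cholesterol synthesis (0.275). Proteasome subunits (0.0718), MYC and nucleolar genes (0.0791), tubulins (0.0887), mitosis (0.0901) and the unfolded protein response (0.0923) had the smallest. Without control 1 the median SD was 0.154 for collagen chains, 0.116 for semaphorins and 0.0498 for MHC class I presentation, and without control 3 it was 0.164 for semaphorins and 0.144 for cholesterol synthesis. Only 8 of the 44 lists had a median below that of all genes.

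**Figure D4:**
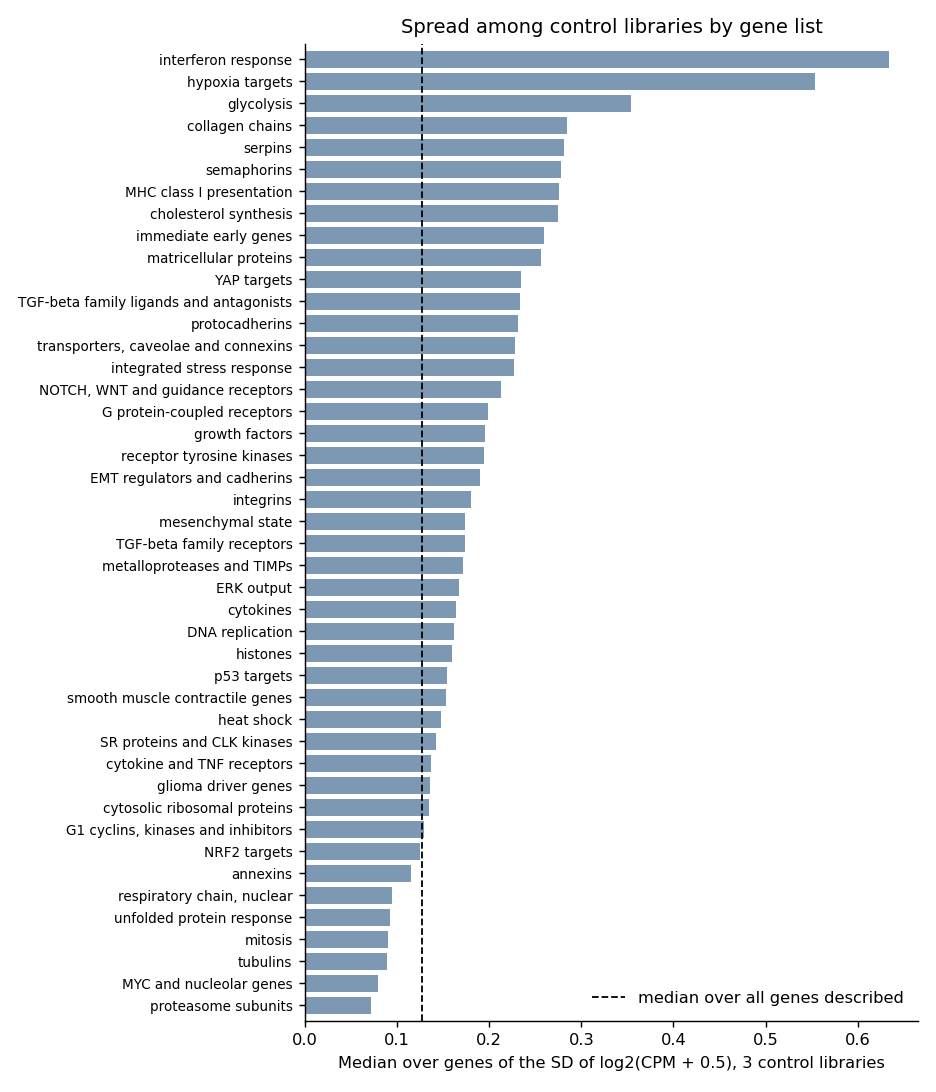
Median SD of log2(CPM + 0.5) among control 1, 2 and 3 for 44 gene lists, with the median over all 9860 genes, 0.127, as a dashed line. Interferon response (0.634) and hypoxia targets (0.554) stand apart from the rest, and the proteasome, MYC and nucleolar, tubulin, mitosis and unfolded protein response lists lie left of the line.

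The interferon response, genes that antiviral and inflammatory signals induce, was lowest in control 1. The 28 genes summed to 666, 1147 and 1337 CPM, and control 1 was the lowest library for 26 of the 27 described, against 39.9% of all genes. *Bst2*, which tethers virus to the membrane, had 64.0, 137 and 162 CPM. *Isg15*, a ubiquitin-like modifier, had 30.3, 57.1 and 73.1 CPM, and *Ifit1*, which binds foreign RNA, 28.8, 62.5 and 76.4 CPM. *Rsad2* (3.67, 16.1 and 16.8 CPM) and *Iigp1* (1.30, 5.46 and 10.3 CPM) were lower still in control 1, the latter at 32 counts. The transducers *Stat2* (23.9, 31.0 and 37.3 CPM) and *Irf9* (31.1, 36.6 and 42.1 CPM) moved less in the same order. In 17 of 27 genes the fold was past 2, against 2.76% of all genes, and in 19 control 1 lay below both others by more than 1.5-fold, against 1.52%.

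Between control 2 and control 3 alone the median SD of these genes was 0.162, against 0.0954 over all genes for the same pair. *Irf1* (58.8, 51.8 and 66.8 CPM) was the gene that was not lowest in control 1. MHC class I presentation moved with them to a smaller extent. *H2-K1* had 243, 353 and 330 CPM, the transporter *Tap1* 15.3, 35.4 and 36.1 CPM and the immunoproteasome subunit *Psmb8* 12.6, 32.3 and 39.1 CPM, while *B2m* had 1721, 2102 and 2123 CPM. In 12 of 15 of these genes control 1 was the lowest, against 39.9% of all genes, and without control 1 their median SD was 0.0498. *Ptprc* had 2 to 8 counts, and the lymphocyte genes summed to at most 0.244 CPM. Some genes known from leukocytes and outside these lists were higher: *Cd53* had 151, 45.96 and 94.01 CPM, *Laptm5* 129.8, 89.6 and 86.7 CPM and *Il2rg* 26.5, 32.02 and 27.2 CPM. These 3 were chosen after their values were seen, and the part of other cells in the interferon values was not tested. MHC class II genes summed to 1.43, 1.46 and 1.53 CPM.

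Promoters of interferon genes are known to carry a repeat of GAAA, the letters bound by interferon-regulated factors. The letters GAAANNGAAA, searched on both strands in the 250 bases before the start of transcription given by RefSeq for GRCm38.p6, were found in 9 of the 19 interferon genes with a promoter in that table, and in 3.06% of 7641 described genes. Over all 32851 promoters the share was 2.98%. The stretches that hold the match are shown for 3 genes whose level was lowest in control 1, with the matching letters in capitals.
Isg15: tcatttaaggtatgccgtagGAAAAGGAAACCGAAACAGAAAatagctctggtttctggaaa
Bst2: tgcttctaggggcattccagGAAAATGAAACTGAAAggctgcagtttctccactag
Ifit1: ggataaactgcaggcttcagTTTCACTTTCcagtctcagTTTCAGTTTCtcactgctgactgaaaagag
They lie at chr4:156200855-156200916 (minus strand) for *Isg15*, chr8:71537567-71537622 (minus strand) for *Bst2* and chr19:34640765-34640833 (plus strand) for *Ifit1*, each printed 5′ to 3′ on the strand of its gene. The match in *Ifit1* reads on the other strand. A match describes these letters only.

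Hypoxia targets, which the factor HIF induces when oxygen is low, had the opposite leader. Their sums were 2539, 1255 and 1887 CPM, with control 1 highest and control 2 lowest in 15 of 16 described genes each, against 31.5% and 30.2% of all genes. *Bnip3*, which removes mitochondria, had 194, 53.7 and 121 CPM. The peptide hormone *Adm* had 30.0, 4.69 and 12.4 CPM, *Ankrd37* 32.6, 6.36 and 13.8 CPM and *Hilpda*, a lipid droplet protein, 37.5, 9.94 and 16.5 CPM. *Ndrg1* (230, 86.2 and 178 CPM) and the glucose transporter *Slc2a1* (451, 215 and 323 CPM) followed the same order at higher levels. Of the 16 genes 10 were past 2-fold, against 2.76%. Control 1 lay above both others by more than 1.5-fold in 6, against 1.15%, and control 2 below both in 9, against 1.09%. *Kdm3a* (69.9, 70.3 and 76.4 CPM) did not take part in this order. Without control 2 the median SD of the list was 0.335.

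Glycolysis kept the same order with smaller folds, at sums of 16093, 11394 and 14005 CPM. *Pgk1* had 2154, 1193 and 1721 CPM, *Ldha*, which makes lactate, 1236, 772 and 1006 CPM and *Pfkl* 323, 142 and 230 CPM. Control 2 was lowest for all 15 described genes and control 1 highest for 14, with *Pgam1* (840, 815 and 939 CPM) the exception. Of the 15 genes 4 were past 2-fold, against 2.76%, and control 2 lay below both others by more than 1.5-fold in 3, against 1.09%. *Slc2a1* stands on both lists. Nuclear genes of the respiratory chain, by contrast, summed to 7529, 7386 and 7770 CPM, a fold of 1.05.

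The letters ACGTG, the core that HIF binds, were found on either strand in the 250 bases before the start in 10 of 14 hypoxia targets with a promoter in the RefSeq table, and in 26.1% of the 7641 described genes (16.6% of all promoters). Being 5 letters long they occur often. Stretches of 2 genes with control 1 highest are shown, with the letters in capitals.
Bnip3: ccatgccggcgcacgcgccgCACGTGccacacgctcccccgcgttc
Slc2a1: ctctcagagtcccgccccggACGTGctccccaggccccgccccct
These are chr7:138909589-138909634 (minus strand) and chr4:119108689-119108733 (plus strand) on GRCm38.p6. In *Bnip3* the letters match on both strands.

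**Figure D5:**
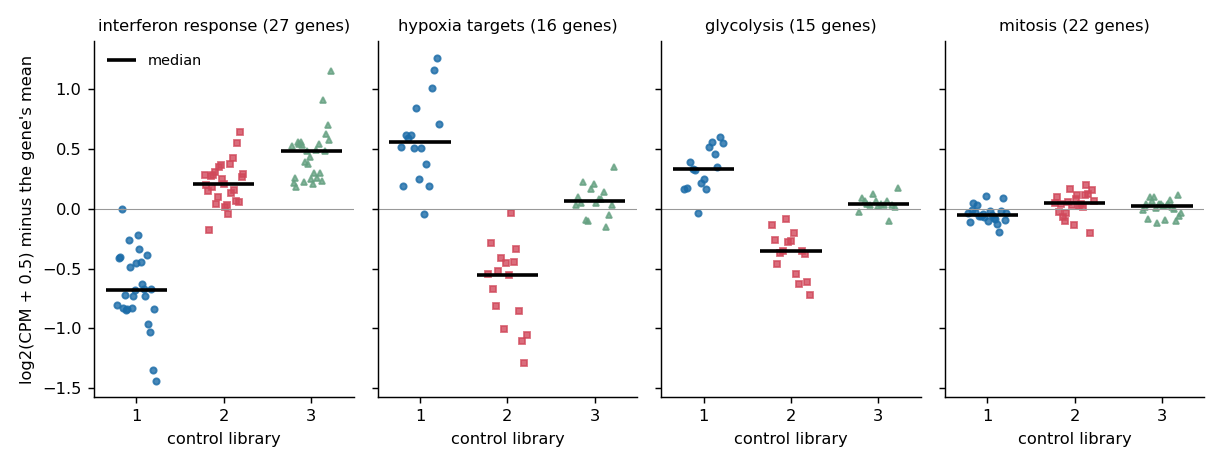
Level of each described gene in control 1, 2 and 3 as log2(CPM + 0.5) minus the mean of that gene (points), with the median of the list as a black bar, for interferon response, hypoxia targets, glycolysis and mitosis. Interferon genes lie lowest in control 1, hypoxia and glycolysis genes highest in control 1 and lowest in control 2, and the 22 mitosis genes stay close to 0.

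Interferon and hypoxia genes thus did not order the libraries as mirror images, since control 3 was highest for 24 of 27 interferon genes (27.99% of all genes) and in between for most hypoxia targets. Cholesterol synthesis showed a further order, with sums of 2777, 3045 and 2235 CPM and control 3 lowest in 18 of 19 genes, against 29.9% of all genes. *Sqle* had 268, 270 and 193 CPM. None of these 19 genes was past 2-fold. Immediate early genes, which are known to rise when tissue is dissociated, were abundant, with *Jun* at 634, 774 and 866 CPM, *Egr1* at 472, 643 and 640 CPM and *Fos* at 592, 384 and 561 CPM. *Zfp36* had 181, 248 and 325 CPM and *Nr4a1*, which was past 2-fold, 18.3, 67.4 and 31.2 CPM. The part of dissociation and sorting in these levels was not tested.

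The 25 genes with the largest SD included 10 highest in control 1, 10 in control 2 and 5 in control 3. This split was near that of all genes, with shares of 31.5%, 40.5% and 27.99%. The largest spread was that of *Capn6* (chromosome X, 143802231 to 143827414), which encodes a calpain that binds microtubules, with 1.18, 23.3 and 2.52 CPM. *Kbtbd11* (2.40, 13.2 and 0.918 CPM) and *Chst15*, a chondroitin sulfotransferase (1.75, 15.2 and 9.83 CPM), followed. All 3 were highest in control 2. At higher levels, the water channel *Aqp1* (chromosome 6, 55336432 to 55348555) had 74.5, 365 and 115 CPM, *Cspg4* 56.2, 218 and 90.8 CPM and *Efemp1*, an elastic fiber protein, 13.2, 62.3 and 32.6 CPM. Control 2 was the highest for each.

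Another set was highest in control 1. It held *Actg2* and *Pgf*, given above, *Arg1* (chromosome 10, 24915221 to 24927484), the arginine-degrading enzyme, with 71.8, 17.7 and 31.5 CPM, the creatine kinase *Ckb* with 74.1, 20.97 and 20.5 CPM, the repressor *Prdm1* with 18.5, 2.82 and 8.38 CPM and *Btn1a1* with 20.5, 3.998 and 7.99 CPM. *Crct1* (13.0, 1.53 and 3.02 CPM) and *Prss46* (27.8, 6.43 and 7.38 CPM) showed the same pattern at low levels. *Cmpk2* (3.26, 13.0 and 13.6 CPM), which neighbours *Rsad2* on chromosome 12, and the protease inhibitor *Serpine2* (6.601, 22.4 and 27.7 CPM) were low only in control 1. Of the others, *Itga10*, *Adra2a* (3.59, 11.8 and 2.29 CPM) and *Mgp* (6.23, 26.5 and 8.49 CPM), were highest in control 2.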

How the data were processed

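SB28 cells grown in brain were profiled by RNA sequencing. Per the study's methods, RNA was taken with AllPrep kits, libraries were stranded TruSeq libraries read over 50 bases, and reads were aligned with TopHat. The submitters' processing notes name TopHat, HTSeq 0.6.1 and mm10. The authors deposited 1 table of raw read counts per gene, with no normalization, and the methods name both HTSeq and featureCounts as counters. The gene annotation and the treatment of reads that map to several genes are not given in the sources used here.

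Counts were divided by the library total to give CPM, and 0.5 was added before log2. Genes with a mean of at least 5 CPM over the control libraries were described. A fold is the highest over the lowest library on CPM + 0.5, and a library stood apart when 1.5-fold above or below both others. Exon length came from GENCODE vM21 (GRCm38). Of 24421 rows, 23358 matched by symbol, 669 by synonym and 394 not at all, and 27 rows named by a date, at most 0.258% of a library, were left out of the gene descriptions. Promoters came from RefSeq.

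No test between groups was made. A few listed genes are not reported here. Genes were named by level (the 25 highest by CPM and per kb, and 5 per list), by spread (25 over all genes, and 2 per list), and as defining markers. Other named genes were chosen after their values were seen. The members and gene lists were chosen with earlier results of these data known. Alternatives were TMM scaling, other filters, another pseudocount, SD relative to genes of like level, and leaving out each library. Scripts were tested on simulated data. Tools were Python 3.11.15, pandas 2.3.3, numpy 2.4.6, matplotlib 3.10.9, R 4.3.3 and edgeR 4.0.16 (TMM only).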

Additional observations from a re-analysis of the deposited data

How the results depend on the processing

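The number of genes past 2-fold was 272, and it was 272 with TMM scaling, 211 with 2 CPM added before the ratio, 458 with a mean of at least 1 CPM and 559 over genes with at least 1 count in any control library. Leaving out 1 library gave 72 (without control 1) to 198 (without control 3), and pairs of libraries can only be closer than 3. The number of genes detected was 11218, 12018 when 10 counts were required instead of 1 CPM, and 11275 to 11324 with 1 library left out. Interferon response and hypoxia targets ranked first and second by median SD under TMM scaling, the other pseudocount, the lower filter and SD relative to genes of like level. Of 280 list sums under other settings, 0 moved by more than 1 SD. Sums with 1 library left out could not move that far, because the SD came from the same 3 libraries. The TMM factors were 0.991 to 1.008, so the count of 0 says little about the sums.

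With 1 library left out, an alternative chosen after seeing the data, the median SD ran from 0.162 (without control 1) to 0.782 for interferon response, from 0.335 (without control 2) to 0.779 for hypoxia targets and from 0.211 (without control 2) to 0.498 for glycolysis. Without control 1, interferon response ranked 16 among the lists. Totals without mitochondrially encoded genes could not be run, because none is among the rows used here. No paired analysis was possible because the result comes from no test. Levels near 0.104 to 0.122 CPM cannot be told from 0 at this depth.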
